A study of Arabidopsis thaliana with 6 samples.

Results

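SAG101 (AT5G14930), GRX480 (AT1G28480), WRKY6 (AT1G62300), WRKY53 (AT4G23810) and AT5G52810, also called SARD4, are 5 regulators or enzymes of the salicylic acid and pipecolate branches of plant immunity. They were picked by name when earlier results of these arrays were already known, and each was read by the 1 probe set that the platform annotation pairs with that gene alone. They are 5 of 13286 Arabidopsis thaliana genes with such a probe set, of which 8602 were bright enough to be tested. The samples were 3 biological replicates of the ceh1 mutant and 3 of the line it derives from, which the labels call wild type, with 1 array per replicate. The plants were 2 weeks old and were grown on 0.5-strength Murashige and Skoog medium at 23 °C. They had 8 h of light at 100 to 150 µE and 16 h of darkness, at 60% humidity. For every sample 2 days of cold are also given. RNA came from about 20 plants. The labels do not say whether about 20 plants were pooled for each replicate or used in all. HDS, the gene mutated in ceh1, encodes an enzyme that makes isoprenoid precursors in plastids. The mutant is a single line, and no rescued line was part of the samples. The comparison asks how transcript levels in the mutant differ from those in its parent.

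Salicylic acid is the hormone through which Arabidopsis builds local and systemic resistance to biotrophic pathogens. The lipase-like protein EDS1 promotes its accumulation together with PAD4, and acts in cell death signalling together with SAG101. Its effects on transcription pass through NPR proteins and TGA factors, to which glutaredoxins such as GRX480 bind, and through WRKY factors, which bind W-box elements. Pipecolic acid, a lysine-derived amino acid, is the precursor of N-hydroxypipecolic acid, the mobile signal that acts together with salicylic acid in systemic acquired resistance, and SARD4 carries out the reduction step of its synthesis.

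Transcripts of SAG101, GRX480 and WRKY6 were higher in ceh1 than in the parent, by 2.49-fold, 4.98-fold and 3.20-fold. WRKY53 and AT5G52810 were 4.09-fold and 2.37-fold brighter on average, short of the test's threshold over all probe sets. All 5 genes had every ceh1 array above every parent array. Of all 15922 probe sets tested, 2.62% were called higher in ceh1 and 12.4% had replicates that lay higher in ceh1 without overlap. The median log2 fold change was 1.68 for the 5 genes and −0.03 over all probe sets tested. Because the 5 genes were picked with earlier results of these arrays known, these counts and this median are description only. Parent replicate 3, the dimmest array, stood apart from the other parent arrays in WRKY53 and in some genes outside the 5. Replicates are labelled biological, and the p-values below measure the spread between these arrays. In whole plants, a change in the number of cells of a type and a change in RNA per cell cannot be told apart. Log2 signals below are quantile-normalised values of log2(intensity + 2), and called means an adjusted p under 0.05 in limma. A fold on this scale understates the change of a dim gene. All 5 genes lay above the filter on dim probe sets, a mean log2 signal of 3.80, in the parent alone as well as over all arrays, and the lowest parent mean among them was 4.48.

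SAG101 encodes the partner with which EDS1 forms a complex in cell death signalling by immune receptors, and was first known as a gene of leaf senescence. Parent replicates 1, 2 and 3 gave log2 signals of 5.48, 5.52 and 5.32, and ceh1 replicates 1, 2 and 3 gave 6.67, 6.84 and 6.75. The 3 values of each genotype lay close together, and the lowest ceh1 array was 1.16 above the highest parent array on the log2 scale. Means were 5.44 ± 0.11 (SD, n = 3) for the parent and 6.75 ± 0.08 (SD, n = 3) for ceh1. The log2 fold change of SAG101 was thus 1.31 ± 0.16 (SE), a rise of 2.49-fold with a 95% interval from 1.91 to 3.24 (limma, adjusted p = 0.00841). Its spread was small, since 83.1% of probe sets had a larger SD in the parent and 92.6% a larger SD in ceh1. As deposited, the parent intensities were 47.7, 39.5 and 28.3 and the ceh1 intensities 90.2, 137 and 128, so the groups were apart before any normalization between arrays. SAG101 passed with every array left out in turn, the highest adjusted p being 0.0467 (limma), without parent replicate 1.

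GRX480 encodes a CC-type glutaredoxin, also named ROXY19, that binds TGA factors, is induced by salicylic acid and can repress jasmonate-responsive genes such as defensins when overproduced. The parent arrays, here and below in the order of replicates 1, 2 and 3, gave log2 signals of 4.29, 4.22 and 4.94, and the ceh1 arrays 6.003, 6.77 and 7.61. The ceh1 arrays were spread over 1.61 on the log2 scale, with replicate 1 the lowest and replicate 3 the highest, and only 5.9% of probe sets had a larger SD in ceh1. The means were 4.48 ± 0.39 (SD, n = 3) and 6.80 ± 0.81 (SD, n = 3), a log2 fold change of 2.31 ± 0.41 (SE) and a fold of 4.98 with a 95% interval from 2.54 to 9.73 (limma, adjusted p = 0.0298). Among the 5 genes this was the largest fold, except without parent replicate 3 and with array weights, where that of WRKY53 was larger, and its interval overlapped those of the other 4. As deposited, the parent intensities were 18.1, 15.4 and 21.8 and the ceh1 intensities 57.1, 130.45 and 232. GRX480 did not pass without parent replicate 1, parent replicate 2, ceh1 replicate 2 or ceh1 replicate 3 (limma, adjusted p = 0.123, 0.130, 0.0848 and 0.0771).

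WRKY6 encodes a transcription factor of WRKY group IIb that is induced in senescing leaves and in pathogen responses. The parent arrays gave log2 signals of 4.12, 4.57 and 5.18, and the ceh1 arrays 5.97, 6.64 and 6.28. Parent replicate 3 was the highest of its group, and the lowest ceh1 array still lay 0.80 above it. The means were 4.62 ± 0.53 (SD, n = 3) and 6.30 ± 0.33 (SD, n = 3), a log2 fold change of 1.68 ± 0.32 (SE) and a fold of 3.20 with a 95% interval from 1.91 to 5.34 (limma, adjusted p = 0.0356). As deposited, the parent intensities were 15.6, 19.4 and 25.7 and the ceh1 intensities 55.9, 118 and 92.6. WRKY6 passed with 1 of 6 arrays left out, parent replicate 3 (limma, adjusted p = 0.0156), and in the other 5 cases its adjusted p of limma ran from 0.0552 without ceh1 replicate 1 to 0.138 without parent replicate 2.

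WRKY53 encodes a WRKY factor of group III that acts early in leaf senescence and in basal defence. The parent arrays gave log2 signals of 4.63, 4.20 and 7.10, and the ceh1 arrays 7.12, 7.21 and 7.70. Parent replicate 3 stood apart from the other parent arrays and came within 0.02 of the lowest ceh1 array. The parent range of 2.89 was accordingly wider than the ceh1 range of 0.59, and only 0.9% of probe sets had a larger parent SD. The means were 5.31 ± 1.56 (SD, n = 3) and 7.34 ± 0.32 (SD, n = 3), so that the log2 fold change was 2.03 ± 0.69 (SE), short of the threshold (limma, adjusted p = 0.156). The fold of 4.09 had a 95% interval from 1.34 to 12.5, unadjusted for the number of probe sets. As deposited, the parent intensities were 24.2, 15.2 and 98.9 and the ceh1 intensities 123, 179 and 248, so parent replicate 3 was high on that scale too. Without parent replicate 3 the log2 fold change was 2.96 ± 0.26 (SE) and passed (limma, adjusted p = 0.00296). Without parent replicate 2 it was 1.48 (limma, adjusted p = 0.393).

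AT5G52810 encodes SARD4, the reductase that turns the cyclic intermediate made by the aminotransferase ALD1 into pipecolic acid. The parent arrays gave log2 signals of 5.24, 4.89 and 5.74, and the ceh1 arrays 6.70, 6.15 and 6.76. The genotypes did not overlap, and the lowest ceh1 array, replicate 2, lay 0.41 above the highest parent array, replicate 3. The means were 5.29 ± 0.43 (SD, n = 3) and 6.54 ± 0.34 (SD, n = 3), a log2 fold change of 1.25 ± 0.28 (SE) that lay just outside the threshold (limma, adjusted p = 0.0571). The fold of 2.37 had a 95% interval from 1.51 to 3.72, unadjusted for the number of probe sets. As deposited, the parent intensities were 39.7, 24.6 and 38.6 and the ceh1 intensities 91.7, 81.8 and 129. Without parent replicate 3 the log2 fold change was 1.48 and passed (limma, adjusted p = 0.0322), while without any other single array it did not, with an adjusted p of limma up to 0.199.

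**Figure D1:**
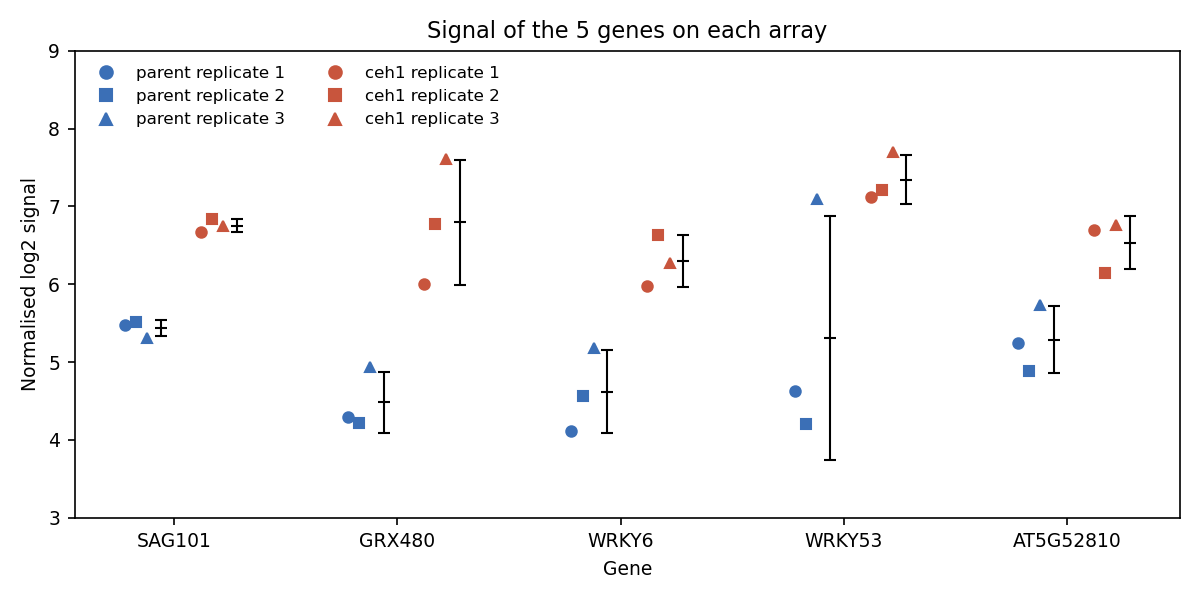
Normalised log2 signal (vertical axis) of the 5 genes (horizontal axis) on each array, parent in blue and ceh1 in red, with the marker shape giving the replicate and the black bar the mean ± SD (n = 3). In every gene the 3 ceh1 arrays lie above the 3 parent arrays, and the parent replicate 3 of WRKY53, at 7.10, lies just under ceh1 replicate 1, at 7.12.

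Without normalization between arrays, WRKY53 and AT5G52810 passed as well, with log2 fold changes of 2.32 and 1.50 (limma, adjusted p = 0.00414 and 0.00965). That setting moves the median of all probe sets from −0.03 to 0.21, and 657 of its 718 calls were rises, against 417 of 600 with quantile normalization. SAG101, GRX480 and WRKY6 passed there too, with log2 fold changes of 1.58, 2.59 and 1.99 against that shifted median (limma, adjusted p = 0.00593, 0.000285 and 0.00133).

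**Figure D2:**
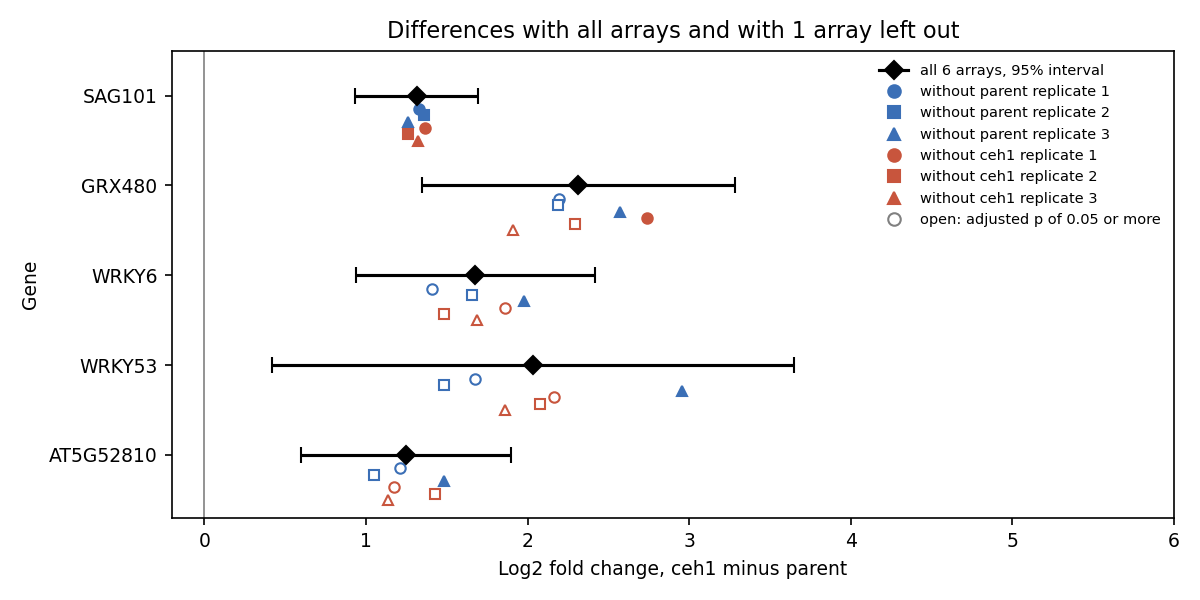
Log2 fold change of ceh1 over parent (horizontal axis) for the 5 genes (vertical axis), with all 6 arrays as a black diamond with its 95% interval and with 1 array left out as coloured markers, open where the adjusted p of limma was 0.05 or more. All 6 SAG101 markers are filled, WRKY53 and AT5G52810 have 1 filled marker each, without parent replicate 3, and the markers of WRKY53 spread from 1.48 to 2.96.

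The arrays of one genotype did not order the 5 genes alike. Parent replicate 3 was the highest parent array for GRX480, WRKY6, WRKY53 and AT5G52810, by 0.45, 0.56, 1.79 and 0.45 above the parent mean on the log2 scale, and the lowest for SAG101, at −0.12 from the mean. In ceh1, replicate 3 was the highest for GRX480, WRKY53 and AT5G52810, and replicate 2 was the highest for WRKY6 and SAG101 and the lowest for AT5G52810. Counted from the parent mean, GRX480 was higher by 1.52, 2.29 and 3.13 in ceh1 replicates 1, 2 and 3, whereas SAG101 was higher by 1.24, 1.40 and 1.31.

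Parent replicate 3 was also high in transcripts that respond within minutes to touch and wounding and in an evening clock gene. STZ, a zinc finger repressor induced by many abiotic stresses, read 6.23, 5.97 and 9.47 in log2 on the parent arrays, against 8.96, 9.15 and 9.47 on the ceh1 arrays. CML38, a calmodulin-like protein gene induced by wounding, read 5.60, 5.44 and 8.02 in log2 on the parent arrays, against 8.18, 7.98 and 9.08 on the ceh1 arrays. These are the 2 tested genes of a list of 14 rapid wounding and touch genes. Parent replicate 3 lay among the ceh1 arrays in both, as it nearly did in WRKY53. Their log2 fold changes of 1.97 and 2.06 missed the threshold (limma, adjusted p = 0.240 and 0.146, with 1 of the 2 at an unadjusted p under 0.05). Without parent replicate 3 both passed (limma, adjusted p = 0.00163 and 0.00765). GI, a clock gene that peaks late in the day and the 1 tested gene of 9 clock genes listed, read 7.52, 7.49 and 9.56 in log2 on the parent arrays, against 7.66, 8.98 and 8.60 on the ceh1 arrays, a log2 fold change of 0.22 (limma, adjusted p = 0.873), or 0.90 without parent replicate 3 (limma, adjusted p = 0.211). STZ, CML38 and GI were described after their values were seen, so their likeness to WRKY53 on parent replicate 3 is description only. The part of time of day or handling in the values of WRKY53 was not tested.

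**Figure D3:**
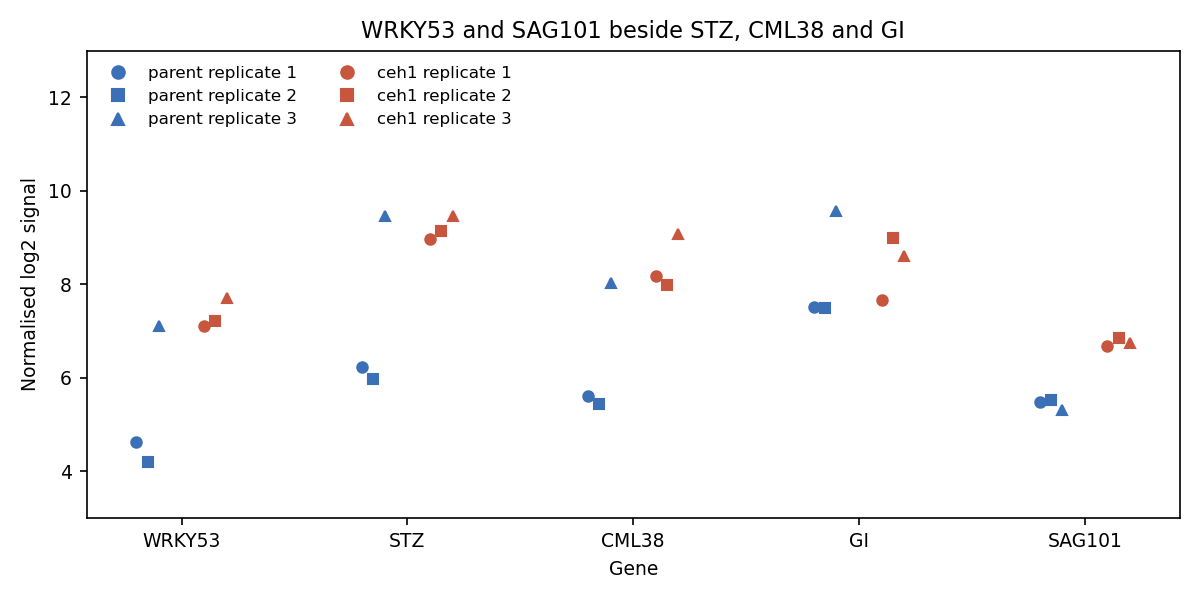
Normalised log2 signal (vertical axis) of WRKY53 and SAG101 beside the rapid response genes STZ and CML38 and the evening gene GI (horizontal axis), parent in blue and ceh1 in red, with the marker shape giving the replicate. The blue triangle, parent replicate 3, lies far above the other parent arrays in WRKY53, STZ, CML38 and GI, and is the lowest parent array in SAG101, at 5.32.

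The pathways around the 5 genes were read only in part. The annotation named no gene for 8730 of the 22746 probe sets. A listed gene without a single-gene probe set may thus still be measured by an unnamed one. For salicylic acid synthesis 0 of 11 listed genes had a single-gene probe set, and of 14 genes for NPR proteins, NIMIN proteins and TGA factors 1 had one, AT4G26120, an NPR1 relative too dim to be tested. Of 10 genes of the EDS1 hub and helper receptors, 2 were tested and both rose, SAG101 and AT3G48080, the close copy of EDS1, which leaves 1 tested gene beside the 5. Of all probe sets, 2.62% rose. AT3G48080 read 3.43, 3.55 and 3.60 in log2 on the parent arrays, against 4.60, 5.40 and 5.57 on the ceh1 arrays, a log2 fold change of 1.66 ± 0.33 (SE, limma, adjusted p = 0.0401). Every ceh1 array lay above the parent arrays, but the parent mean of 3.53 was under the filter, so the gene was tested only because it was brighter in ceh1. Its probe set may also bind transcripts of EDS1, and it did not pass with 5 of the 6 arrays left out, such as ceh1 replicate 3 (limma, adjusted p = 0.160). Without the filter it did not pass either (limma, adjusted p = 0.0627).

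In the pipecolate and lysine list 3 of 10 genes were tested and 0 passed, with 2 at an unadjusted p under 0.05 in limma. Besides AT5G52810, these were AT4G33150 and ALDH7B4, which encode the first enzyme of lysine breakdown and an aldehyde dehydrogenase of the same route. AT4G33150 read 6.29, 6.31 and 5.75 in log2 on the parent arrays, against 6.81, 9.22 and 6.82 on the ceh1 arrays, and ALDH7B4 read 9.28, 9.63 and 9.51 in log2 on the parent arrays, against 9.28, 11.4 and 9.67 on the ceh1 arrays. Both were highest in ceh1 replicate 2, the array on which AT5G52810 was lowest in ceh1. Their log2 fold changes were 1.50 and 0.64 (limma, adjusted p = 0.225 and 0.522), and without ceh1 replicate 2 that of AT4G33150 was 0.69 (limma, adjusted p = 0.183) and that of ALDH7B4 turned to −0.0019 (limma, adjusted p = 0.997). UGT76B1, the glucosyltransferase that inactivates both salicylic acid and N-hydroxypipecolic acid, was too dim to be tested. It read 1.50, 3.38 and 1.59 in log2 on the parent arrays, against 2.46, 4.71 and 4.41 on the ceh1 arrays, and the groups overlapped.

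GRX480 belongs to a plant-specific family of CC-type glutaredoxins, several of which respond to nitrate and cytokinin in leaves and roots. Of 15 tested members of 20 listed, 1 rose, GRX480, and 0 of the other 14 passed, with 2 of the 14 at an unadjusted p under 0.05 in limma, a level reached by 20.9% of all probe sets. The other 14 had log2 fold changes from −1.38 to 0.06 with a median of −0.27, against 2.31 for GRX480. ROXY2, which acts in anther development, had the lowest, with log2 signals of 5.51, 5.37 and 4.37 on the parent arrays and 4.63, 4.07 and 2.42 on the ceh1 arrays, and these overlapped (limma, adjusted p = 0.250). AT1G06830 read 7.18, 6.91 and 7.31 in log2 on the parent arrays, against 6.48, 6.47 and 5.99 on the ceh1 arrays, without overlap, and its log2 fold change of −0.82 missed the threshold (limma, adjusted p = 0.0793). AT2G47880 read 7.51, 7.59 and 7.11 in log2 on the parent arrays, against 6.69, 7.04 and 4.88 on the ceh1 arrays, also without overlap, and its log2 fold change of −1.20 missed it too (limma, adjusted p = 0.248). These were the 2 of the 14 that lay lower without overlap, as did 15.1% of all probe sets. Across all probe sets 3.77% were called in either direction.

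Of 72 genes named as WRKY factors, 7 had a single-gene probe set and 6 were tested. Of these 6, WRKY6 rose, WRKY22 fell and 4 did not pass. An unadjusted p under 0.05 in limma was reached by 5 of the 6, against 20.9% of all probe sets. That count holds WRKY6 and WRKY53, which were picked with earlier results known. Without them, 0 of 4 tested genes rose and 1 fell, and 3 had an unadjusted p under 0.05 in limma. The median log2 fold change of these 4 was −0.25. WRKY22, a factor of the flagellin response, read 7.59, 7.66 and 7.65 in log2 on the parent arrays, against 6.55, 6.92 and 6.64 on the ceh1 arrays. The replicates did not overlap, and WRKY22 fell by 0.93 on the log2 scale, with an SE of 0.17 (limma, adjusted p = 0.0299). Of all probe sets, 1.15% were called lower. Without normalization its log2 fold change was −0.66, which missed the threshold (limma, adjusted p = 0.420), and it passed with 1 of the 6 arrays left out, ceh1 replicate 2. WRKY47, which shares group IIb with WRKY6, read 5.28, 5.45 and 3.88 in log2 on the parent arrays, against 6.47, 6.26 and 6.18 on the ceh1 arrays, a log2 fold change of 1.44 ± 0.41 (SE, limma, adjusted p = 0.105). The genotypes did not overlap. WRKY47 passed without normalization, at 1.64, and with the replicate number as a block, at 1.44 (limma, adjusted p = 0.0195 and 0.0445), and without parent replicate 3 its log2 fold change was 0.95 (limma, adjusted p = 0.0542). Here parent replicate 3 was the lowest parent array, the reverse of its place in WRKY6 and WRKY53. WRKY42, also of group IIb, was too dim to be tested, and WRKY53 was the 1 tested gene of group III. The remaining tested genes were WRKY1, listed as ZAP1, and WRKY20, with log2 fold changes of 0.07 and −0.57 (limma, adjusted p = 0.871 and 0.195).

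**Figure D4:**
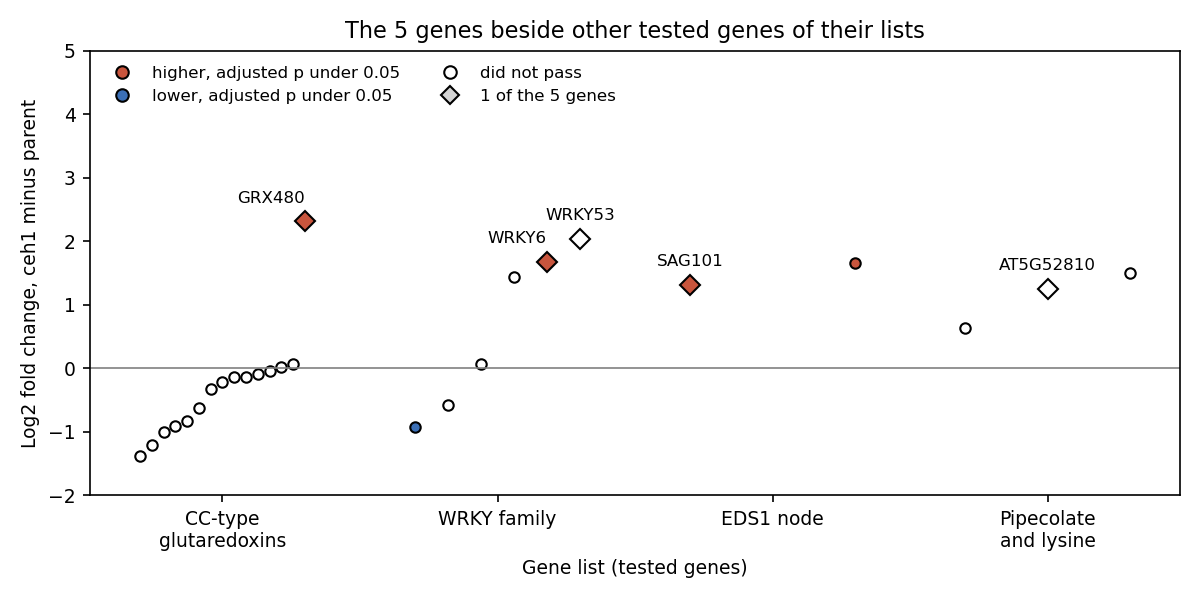
Log2 fold change of ceh1 over parent (vertical axis) for each tested gene of 4 lists (horizontal axis), with the 5 genes as labelled diamonds and other genes as circles, red where called higher, blue where called lower and white where the gene did not pass. GRX480, at 2.31, lies above the other 14 tested glutaredoxins, which reach 0.06, and the WRKY genes run from −0.93 for WRKY22 to 2.03 for WRKY53.

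Leaf senescence, with which SAG101, WRKY6 and WRKY53 are also associated, was read in 4 of 14 listed genes, these 3 and SAG29. SAG29, a sugar transporter gene (SWEET15) induced in senescing leaves, read 7.13, 7.09 and 5.25 in log2 on the parent arrays, against 5.65, 4.99 and 2.71 on the ceh1 arrays, and its log2 fold change of −2.04 missed the threshold (limma, adjusted p = 0.213). The genotypes overlapped, and replicate 3 was the lowest array of each. Among markers of salicylic acid and systemic resistance 7 of 12 listed genes were tested and 7 rose. These were listed with their rise in these arrays already known, and 6 of the 7 had parent means under the filter, so that they were tested only because they were brighter in ceh1, and the count supports nothing. AT5G18470, CHI and AT5G52760, among them, encode a lectin-domain protein, a chitinase and a heavy-metal-domain protein. The 9 pathway lists leave out the WRKY family as a list, but WRKY6 and WRKY53 are in them under leaf senescence. WRKY6 is thus among the rises here as well as in the WRKY family. Over the 9 lists 11 of 33 tested genes rose and 0 fell, beside 2.62% and 1.15% of all probe sets (limma, with 18 of the 33 at an unadjusted p under 0.05). With array weights 15 of them rose and 3 fell, and with the replicate block 14 rose and 1 fell. Without the 5 genes 8 of 28 rose, with a median log2 fold change of 0.05, and without the 7 resistance markers as well 1 of 21 rose, AT3G48080.

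AT5G52810 lies close to a row of heavy-metal-domain genes on chromosome 5, with 5 genes between it and AT5G52760 in the TAIR10.1 gene order. AT5G52740, AT5G52750 and AT5G52760 rose by log2 fold changes of 1.94, 3.18 and 5.59 (limma, adjusted p = 0.0378, 0.00079 and 0.00116), and AT5G52740 did not pass with any single array left out (limma, adjusted p from 0.0507 to 0.127) or without the filter (limma, adjusted p = 0.0509). Parent means of AT5G52740 and AT5G52760, 3.13 and 2.76 in log2, were under the filter, so both were tested only through ceh1. AT5G52790, the tested gene nearest to AT5G52810 on that side, had a log2 fold change of 0.41 (limma, adjusted p = 0.503). For the 5 genes together, the nearest tested gene on either side gave 10 neighbours, of which 0 passed and 0 had an unadjusted p under 0.05 in limma. Their log2 fold changes ran from −0.28 to 0.43, and 1 of the 10, AT5G52790, had replicates that did not overlap, against 27.5% of all probe sets in either direction.

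The named genes whose signal followed each of the 5 most closely over the 6 arrays were ranked by Pearson correlation among 8744 probe sets, as a description, since the arrays share the genotype difference. All 5 genes lay higher in ceh1, so genes ranked this way tend to do so too, and the counts of calls support nothing. Of all probe sets, 2.62% were called higher and 20.9% had an unadjusted p under 0.05 in limma. SAG101 was most like AT3G57460 (r = 0.996), AT5G05600, which encodes a jasmonate-inactivating oxygenase (r = 0.993), and AT5G10740 (r = 0.993), and all 3 rose, by log2 fold changes of 3.88, 3.29 and 0.92. For GRX480 they were AT5G08240 (r = 0.995), AT1G13750 (r = 0.992) and AT3G57630 (r = 0.991), of which the first and second rose, by 2.43 and 1.78. WRKY6 was followed by AT1G48430, AT5G55530 and AT4G23470 (r = 0.998, 0.997 and 0.993), and WRKY53 by AT5G10695, AT4G27652 and AT2G32030 (r = 0.997, 0.995 and 0.995), and 0 of these 6 passed, with 6 of the 6 at an unadjusted p under 0.05 (limma). The genes most like AT5G52810 were AT2G34930, which encodes a leucine-rich repeat protein (r = 0.992), AT1G04900 (r = 0.990) and AT5G37540 (r = 0.988), and AT2G34930 rose by 1.38 (limma, adjusted p = 0.0400). An r above 0.95 was reached by 155 of the 8744 for SAG101 and by 62 of them for AT5G52810.

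Over all probe sets, 600 of 15922, or 3.77%, were called, 417 higher and 183 lower. The trimmed mean intensity of the arrays differed by up to 1.60-fold, and the lowest array was parent replicate 3. The 25S ribosomal RNA signal was 294 to 985 in the parent and 1132 to 4598 in ceh1 and the 3′ to 5′ ratio of GAPDH was 0.75 to 0.91 and 0.94 to 1.07, both higher in ceh1 without overlap (p = 0.1 in an exact two-sided permutation test of either, the smallest value possible with 3 against 3). The 3′ to 5′ ratio of actin overlapped in the newer control probe sets, at 2.52 to 2.61 and 2.31 to 2.79 (p = 0.7 in the same exact permutation test), and not in the older ones, at 19.7 to 22.5 and 16.2 to 17.4 (p = 0.1, exact permutation test). Of 23 marker genes of 7 tissues and cell types, 4 had single-gene probe sets, 2 of root and 1 each of guard cell and seed, and none of the mesophyll, phloem, epidermis and flower markers was read. Summed root marker intensity, nearly all of it PYK10, was 299.9 to 860 in the parent and 1197 to 1864 in ceh1, guard cell 54.9 to 78.7 and 65.9 to 123.5, and seed 10.8 to 12.8 and 15.01 to 38.5. These sums were not normalised between arrays. After normalization the guard cell marker FMA and the seed marker PAP85 overlapped, with log2 fold changes of 0.22 and 0.55 (limma, adjusted p = 0.638 and 0.4705). PYK10, a root beta-glucosidase gene, had a log2 fold change of 1.21 (limma, adjusted p = 0.0733), and its replicates did not overlap. It passed without parent replicate 3, at 0.87, with array weights, at 0.97, and with the replicate block, at 1.21 (limma, adjusted p = 0.0473, 0.0322 and 0.0322). The other root marker, AT5G17820, had a log2 difference of −0.22 and was too dim to be tested. The part of these measures in the rises of the 5 genes was not tested.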

How the data were processed

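The authors deposited 1 table of probe set intensities on a linear scale, made with MAS5 per the submitters' processing notes. The MAS5 settings were not given in the sources used. Per the labels' protocols, biotinylated cRNA from 4 µg of total RNA was hybridised. For arrays, their number limits the precision.

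Leaving out 64 control probe sets, the table held 22746. The platform annotation gave 1 gene for 13513 of them, several for 503 and a name for none of the other 8730. Of the single-gene ones, 13436 matched the TAIR10.1 table, used for names and gene order. Values were transformed as log2(intensity + 2) and quantile normalised, and probe sets under the 30th percentile of mean signal (3.80) were left out, which kept 15922. The test of ceh1 against parent was limma 3.58.1 (R 4.3.3), two-sided, with a variance trend in eBayes. P-values were adjusted by Benjamini-Hochberg over these 15922 probe sets, and 0.05 was the threshold.

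The 5 genes and all 9 lists were chosen with earlier results of these data known. Apart from the 5 genes, named genes were the 3 largest calls each way per list, list members behind a count of 5 or fewer, the 3 most correlated genes, tested neighbours, and WRKY genes of groups IIb and III. ROXY2, AT1G06830, AT2G47880, STZ, CML38 and GI were described after their values were seen. A list gene was read by its brightest probe set. In simulated arrays with 200 of 15922 probe sets changed, 29.6% of log2 changes of 1 and 69.6% of those of 2 were recovered, and 6.06% of calls were false.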

Additional observations from a re-analysis of the deposited data

How the results depend on the processing

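All 5 genes kept log2 fold changes above 0 under every alternative that could read them, 16 for SAG101, WRKY53 and AT5G52810 and 15 for GRX480 and WRKY6, which fell under a filter set at the 50th percentile. SAG101 passed in all 16, with values from 1.20 to 1.58. With 1 array left out, log2 fold changes ran from 1.91 to 2.74 for GRX480, which passed in 2 of 6 cases, from 1.41 to 1.98 for WRKY6, 1 of 6, from 1.48 to 2.96 for WRKY53, 1 of 6, and from 1.05 to 1.48 for AT5G52810, 1 of 6. Without the filter WRKY6, at 1.68, did not pass (limma, adjusted p = 0.0535). WRKY53 and AT5G52810 passed without normalization, at 2.32 and 1.50, and with array weights, at 2.70 and 1.47 (limma, adjusted p = 0.0147 and 0.00806). With a replicate block they passed too, at 2.03 and 1.25 (limma, adjusted p = 0.0415 and 0.0178). Deviations of same-numbered arrays correlated at 0.27, 0.06 and 0.47. Parent replicates 1 and 3 correlated best with the ceh1 array of their own number, and parent replicate 2 with ceh1 replicate 1, at 0.34. The labels do not say whether equal numbers mark plants grown together. The numbers were therefore not taken to pair the samples, although these correlations do not exclude pairing.

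The 600 calls became 384 when probe sets under the 50th percentile were dropped, 1815 under array weights (51.5% of them rises, against 69.5%), 1160 with the replicate block, and 152 to 676 with 1 array left out. The 2 WRKY calls became 1 without the filter and at the 50th percentile, 4 with the block, and 0 to 2 with 1 array left out, where 3 to 5 of the 6 had an unadjusted p under 0.05 in limma. The 11 calls in the 9 pathway lists became 4 with the 50th percentile filter, 18 under array weights (15 higher and 3 lower), and 7 to 13 with 1 array left out, 7 without parent replicate 1, parent replicate 2, ceh1 replicate 2 or ceh1 replicate 3. GI and ALDH7B4, neither of which passed, changed direction with 1 array left out. GI ran from −0.12 to 0.90, below 0 without parent replicate 1, parent replicate 2 or ceh1 replicate 2, and ALDH7B4 from −0.0019 to 1.07. The alternatives for genes beside the 5 were added after the data were seen, as were the older actin controls, which gave a log2 difference of −0.29 against −0.04. The causes were not tested. Of simulated log2 changes of 1, 29.6% were recovered with 3 arrays per genotype. The simulated noise was independent between probe sets, and the changed ones were picked at random. The simulation changed 200 probe sets, fewer than the 600 called here, and its values were not normalised. Its recovery thus need not hold for these arrays. Why AT5G52810 missed the threshold was not tested.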
